A study of Mus musculus with 7 samples.

Results

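Transcripts of the 2 mitotic Aurora kinases and of 8 genes that work with them at the centromere and spindle were followed in kidney RNA from lupus-prone MRL/lpr mice. The 10 genes were taken by symbol from the 53465 genes of the deposited count table: Aurkb, Incenp, Birc5 and Cdca8, which encode the chromosomal passenger complex, Aurka and its activator Tpx2, the kinases Plk1 and Bub1, and the shugoshins Sgo1 and Sgo2a. 4 mice had received AZD1152 (barasertib), a prodrug of an inhibitor of Aurora kinase B, and 3 mice had received vehicle. All 7 mice carried the lpr allele, a defect of the Fas gene that leads to a spontaneous lupus-like disease with nephritis, so no library came from a mouse without it. Each mouse gave 1 poly(A)-selected library of whole renal tissue, with 14692113 to 17036862 counts in AZD1152 libraries and 16195173 to 16930859 counts in vehicle libraries. The kidney genes Slc34a1 and Umod were detected in every library, at 4596 to 5385 and 1554 to 2922 CPM (counts scaled to a common library total, with TMM factors) in AZD1152 kidneys, against 2425 to 3690 and 2285 to 3327 CPM in vehicle kidneys.

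Aurora B is the kinase of the chromosomal passenger complex, which sits at the inner centromere in early mitosis, releases microtubules that are wrongly attached, and later moves to the spindle midzone for cytokinesis. INCENP is its scaffold and activates the kinase, and survivin (Birc5) and borealin (Cdca8) bring it to the centromere, where survivin reads a histone mark set by haspin and borealin binds shugoshins that BUB1 has recruited. Aurora A acts at centrosomes and spindle poles, where TPX2 activates it, and in turn activates PLK1. Most of these genes are transcribed chiefly in G2 and mitosis, so that resting cells hold little of their RNA. In bulk RNA, fewer cells of a type and less RNA per cell cannot be told apart.

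Of the 10 genes, 4 fell in AZD1152 kidneys: Aurkb, Birc5, Incenp and Sgo1, the last of which entered the test only through its vehicle libraries. The other 5 that were tested, Tpx2, Bub1, Plk1, Aurka and Cdca8, had negative log2 fold changes that did not pass the test, and Sgo2a had too few counts to be tested. Calls were made with edgeR (quasi-likelihood) over 15774 genes, at a p below 0.05 after Benjamini-Hochberg adjustment. They took in 7.83% of the genes tested, 4.81% lower and 3.02% higher in AZD1152 kidneys, and 50.1% of the genes tested had a negative log2 fold change. Every AZD1152 library lay below every vehicle library in 8 of the 9 tested members, against 11.6% of all genes tested, and Plk1 was the one that overlapped. The number of members called was 2 without AZD1152 replicate 1, 2 or 4, 1 without vehicle replicate 1 or 2, and 0 without vehicle replicate 3 (edgeR, 6 of 9 at a p under 0.05 before adjustment). The median log2 fold change of the 9 was -0.83, beside -0.0006 over all genes tested. Sgo1 reached the count minimum of the filter only in vehicle libraries, and Bub1 in 1 AZD1152 library and 3 vehicle libraries, so these summaries describe the genes and lend no support of their own. The counts were small, from 12 over 4 AZD1152 libraries and 36 over 3 vehicle libraries for Sgo1 to 313 and 452 for Incenp.

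**Figure D1:**
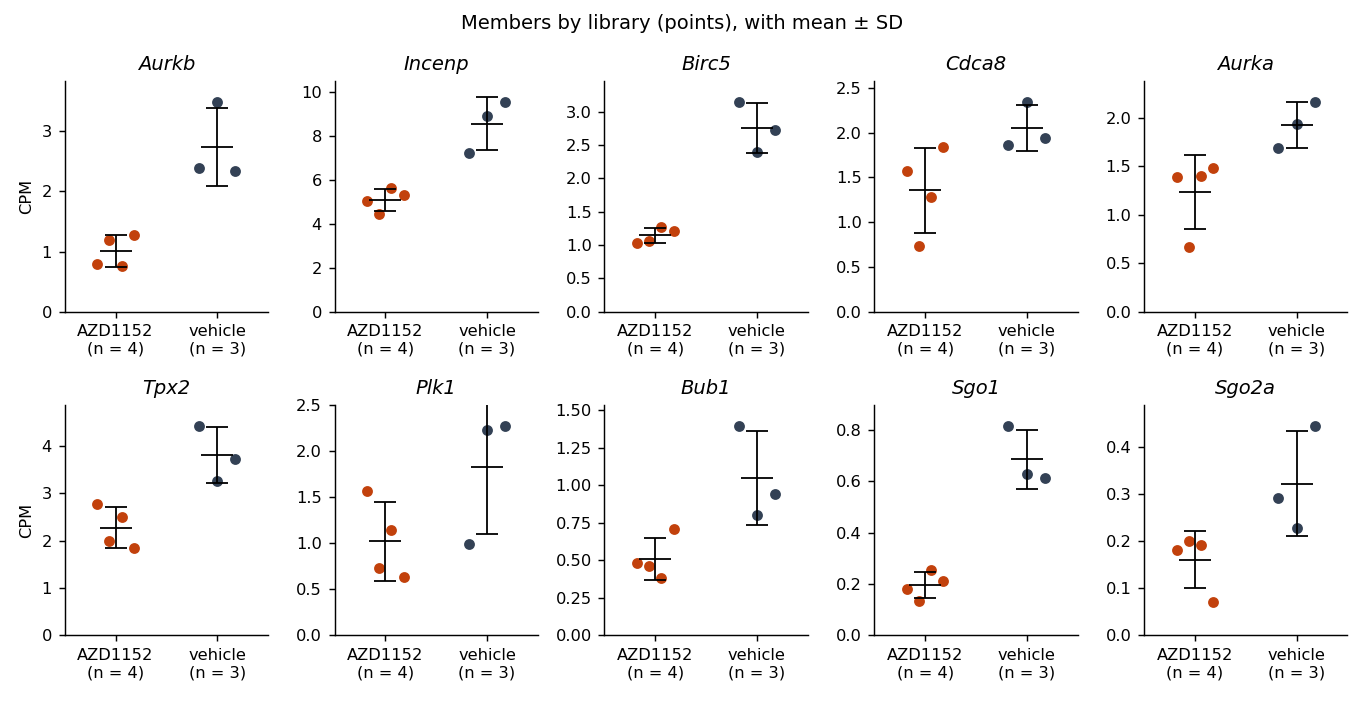
CPM of each of the 10 genes (vertical axis, TMM-scaled, starting at 0) in the 4 AZD1152 and 3 vehicle libraries (points), with mean and SD as bars. The groups overlap only for Plk1, and AZD1152 replicate 2 is the lowest library for Incenp, Cdca8, Aurka and Sgo1.

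Within the chromosomal passenger complex, the transcripts of the kinase, of survivin and of the scaffold fell. Aurkb (ENSMUSG00000020897; GRCm38 chromosome 11, 69045647 to 69051664, plus strand) had 0.786, 1.20, 0.766 and 1.28 CPM in AZD1152 replicates 1 to 4, against 2.39, 3.48 and 2.33 CPM in vehicle replicates 1 to 3. The AZD1152 libraries formed a low group and vehicle replicate 2 was the highest. The log2 fold change was -1.44 ± 0.29 (SE; edgeR adjusted p = 0.0233), a level 63.2% lower. Birc5 (ENSMUSG00000017716; chromosome 11, 117849251 to 117855743, plus strand) had 1.03, 1.06, 1.28 and 1.20 CPM with AZD1152, against 3.15, 2.40 and 2.72 CPM with vehicle. Its 4 AZD1152 libraries lay close together, and the log2 fold change was -1.26 ± 0.22 (edgeR adjusted p = 0.0174), a level 58.4% lower. Incenp (ENSMUSG00000024660; chromosome 19, 9872296 to 9899551, minus strand) had 5.02, 4.45, 5.62 and 5.31 CPM with AZD1152, against 7.22, 8.91 and 9.55 CPM with vehicle. It was the most abundant of the 10 genes and was 40.4% lower, or -0.75 ± 0.16 as log2 fold change (edgeR adjusted p = 0.0272).

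Cdca8 (ENSMUSG00000028873; chromosome 4, 124918465 to 124939311, minus strand) was the member of the complex that did not pass. It had 1.57, 0.731, 1.28 and 1.84 CPM in AZD1152 replicates 1 to 4, against 1.86, 2.34 and 1.94 CPM in vehicle replicates 1 to 3. AZD1152 replicate 4 nearly reached vehicle replicate 1, and AZD1152 replicate 2 was the lowest. The log2 fold change was -0.60 with a 95% interval of -1.30 to 0.11 (edgeR adjusted p = 0.277), so that a fall as large as that of Incenp was within the interval. Of its merged exon length, 4.48% is shared with 9930104L06Rik on the opposite strand, and the strand setting of the counting was not given in the sources used here.

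The depth limited these comparisons unevenly. At Aurkb's mean count, sampling of reads alone gives a coefficient of variation of 25.6% in AZD1152 libraries and 14.4% in vehicle libraries, and the observed values were 26.6% and 23.7%. For Birc5 the observed variation was 10.3% and 13.6%, at or below the 23.9% and 14.4% from sampling. Cdca8 varied by 35.1% among AZD1152 libraries, and by 12.5% among vehicle libraries, where sampling gives 16.7%. The calls of Aurkb, Birc5 and Incenp were lost without vehicle replicate 3 (edgeR adjusted p = 0.0683, 0.0675 and 0.11). They were also lost without vehicle replicate 1 for Aurkb and Birc5 (0.0545 and 0.0598), and without vehicle replicate 2 for Aurkb and Incenp (0.0559 and 0.0585). The Incenp call was lost as well without AZD1152 replicate 1, 2 or 4 (0.0524, 0.0552 and 0.0634).

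**Figure D2:**
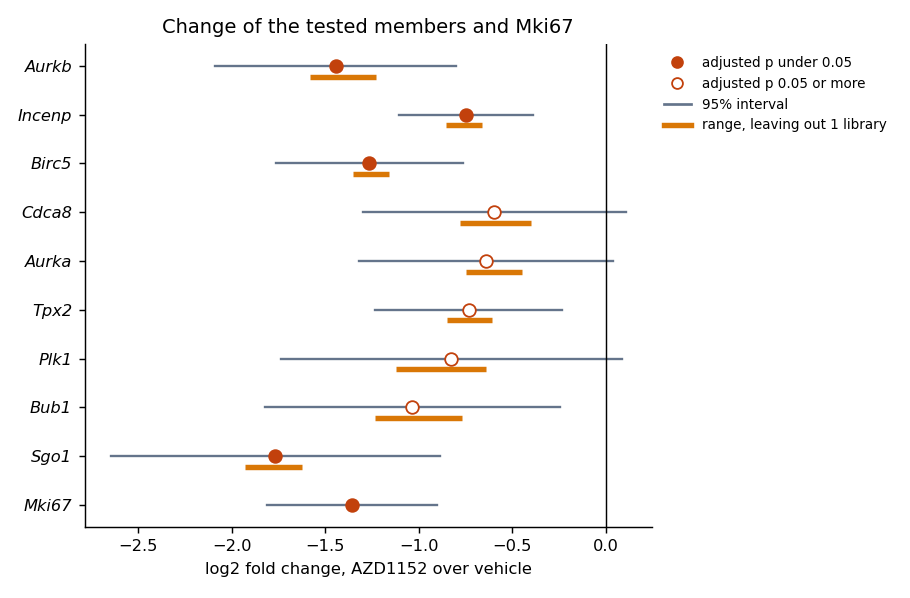
log2 fold change of AZD1152 over vehicle (horizontal axis) for the 9 tested genes and Mki67, with the 95% interval (thin line) and, for the 9 genes, the range when 1 of the 7 libraries is left out (thick line). Filled points passed the test, and the intervals of Cdca8, Aurka and Plk1 include 0.

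Aurora A and TPX2, which form the spindle-pole arm of the Aurora system, had lower values in AZD1152 kidneys without passing the test. Aurka (ENSMUSG00000027496; chromosome 2, 172356190 to 172370535, minus strand) had 1.39, 0.664, 1.40 and 1.49 CPM in AZD1152 replicates 1 to 4, against 1.69, 1.94 and 2.17 CPM in vehicle replicates 1 to 3. AZD1152 replicate 2 stood far below the other 3, and the groups did not overlap. The log2 fold change was -0.64 with a 95% interval of -1.32 to 0.04 (edgeR adjusted p = 0.229), and it was -0.45 without AZD1152 replicate 2 (edgeR adjusted p = 0.314). Tpx2 (ENSMUSG00000027469; chromosome 2, 152847964 to 152895321, plus strand) had 2.78, 1.99, 2.49 and 1.84 CPM with AZD1152, against 4.43, 3.26 and 3.72 CPM with vehicle. All AZD1152 libraries were below all vehicle libraries, with a log2 fold change of -0.73 and a 95% interval of -1.23 to -0.23 (edgeR adjusted p = 0.0775). It passed when libraries were scaled by total counts (edgeR adjusted p = 0.0437), a scaling that shifts the median of all genes to -0.15.

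Aurkc, the third Aurora kinase, which is expressed mainly in germ cells, was not tested. It had 0, 3, 1 and 5 counts in AZD1152 replicates 1 to 4 and 0 counts in each vehicle library, where 0 allows up to 0.175 CPM in the library with the highest limit. It was named after its values were seen.

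PLK1 and BUB1 act upstream of centromere recruitment. BUB1 phosphorylates histone H2A, the mark that shugoshins bind, and PLK1 acts on BUB1, shugoshins and the passenger complex. Plk1 (ENSMUSG00000030867; chromosome 7, 122159439 to 122169873, plus strand) had 1.57, 0.731, 1.15 and 0.638 CPM in AZD1152 replicates 1 to 4, against 0.99, 2.23 and 2.28 CPM in vehicle replicates 1 to 3. Vehicle replicate 1 fell inside the AZD1152 range, and both groups were wide, with coefficients of variation of 42.0% and 39.8% against 25.0% and 17.6% from sampling. The log2 fold change was -0.83 with a 95% interval of -1.74 to 0.09 (edgeR adjusted p = 0.245). It was -1.12 without vehicle replicate 1 (edgeR adjusted p = 0.148). Of its merged exon length, 7.09% is shared with Gm44985 on the opposite strand. Bub1 (ENSMUSG00000027379; chromosome 2, 127801122 to 127831865, minus strand) had 0.484, 0.465, 0.383 and 0.709 CPM with AZD1152, against 1.40, 0.799 and 0.944 CPM with vehicle. The groups did not overlap, yet the counts were only 6 to 10 in AZD1152 libraries and 14 to 24 in vehicle libraries. Its log2 fold change was -1.03 with a 95% interval of -1.82 to -0.24 (edgeR adjusted p = 0.105).

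Shugoshins guard centromeric cohesin from removal and bind borealin, and their transcripts were the scarcest of the 10. Sgo1 (ENSMUSG00000023940; chromosome 17, 53674786 to 53689333, minus strand) had 3, 2, 4 and 3 counts in AZD1152 replicates 1 to 4, against 14, 11 and 11 counts in vehicle replicates 1 to 3. These correspond to 0.133 to 0.255 CPM with AZD1152 and 0.611 to 0.816 CPM with vehicle, without overlap. The AZD1152 counts of Sgo1 lie at or near the floor of 3 counts, and the gene passed the filter only through its vehicle libraries. The log2 fold change of Sgo1, -1.77 ± 0.39 (edgeR adjusted p = 0.0313) had the largest size among the members, with a wide 95% interval of -2.65 to -0.89. Sampling of reads alone gives a coefficient of variation of 57.7% with AZD1152 and 28.9% with vehicle, above the observed 26.4% and 16.6%. This SE and interval may therefore be too narrow. The SE was 0.53 with no filter on low counts and 0.69 in DESeq2. The call was lost without 6 of the 7 libraries: AZD1152 replicate 1, 2 or 4 (edgeR adjusted p = 0.057, 0.0664 and 0.0667) and vehicle replicate 1, 2 or 3 (0.102, 0.0574 and 0.0978). It was also lost with no filter on low counts (0.0612). Sgo2a (ENSMUSG00000026039; chromosome 1, 57995971 to 58025899, plus strand) had 3, 3, 3 and 1 counts in AZD1152 libraries, against 5, 4 and 8 counts in vehicle libraries. Those counts lie at or near the 3 counts used as the floor, and 35% of its merged exon length is shared with Kctd18 on the opposite strand. A fit with no filter on low counts gave -0.95 ± 0.68 for its log2 fold change (adjusted p = 0.556 in edgeR).

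Levels were compared between genes per kilobase of merged exons, a measure that counts the exons of all annotated isoforms as length. In vehicle kidneys Incenp was at the top with 1.98 ± 0.278 CPM per kb (SD, n = 3), above every other member in each library. Aurkb, Plk1, Tpx2, Birc5 and Aurka followed at 0.928, 0.833, 0.813, 0.81 and 0.763 CPM per kb, neighbours that did not differ beyond their spread. Cdca8 came next with 0.396 ± 0.0494 CPM per kb, its highest library at 0.452 and so just above the lowest of Plk1 at 0.45. Bub1 at 0.241 and Sgo1 at 0.18 CPM per kb overlapped, and Sgo2a was lowest at 0.0459 CPM per kb. In AZD1152 kidneys Incenp again led with 1.18 ± 0.115 CPM per kb (SD, n = 4) and Cdca8, Bub1, Sgo1 and Sgo2a kept the last 4 places. Aurka, Tpx2, Plk1, Aurkb and Birc5 lay between them at 0.489, 0.487, 0.465, 0.341 and 0.336 CPM per kb. Ranges of neighbours in this order overlapped, while every Tpx2 library was above every Birc5 library. Aurkb was in rank 5 of 10 with AZD1152 and in rank 2 with vehicle.

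**Figure D3:**
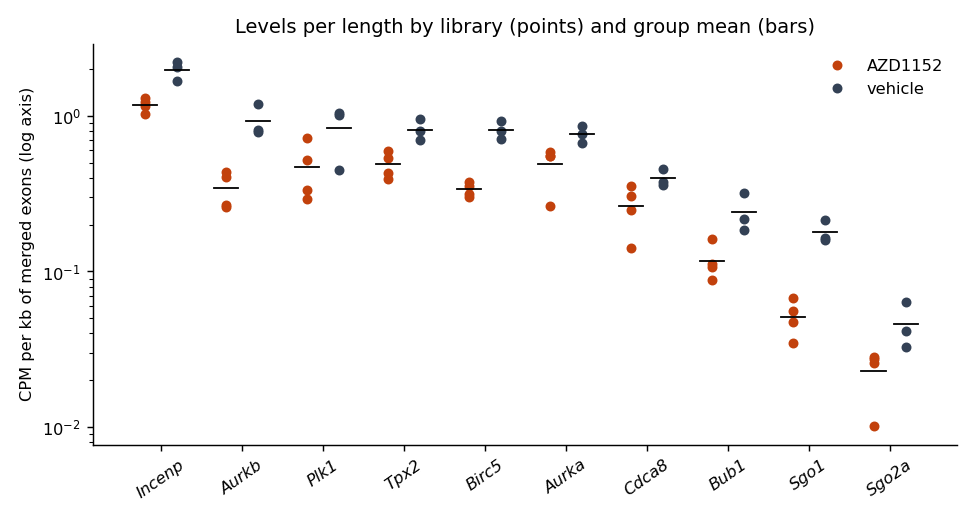
Level per kilobase of merged exons (vertical log axis, CPM per kb) for the 10 genes ordered by their vehicle mean, with each AZD1152 and vehicle library as a point and group means as bars. Incenp leads in both groups, and 5 genes from Aurkb to Aurka lie close together with vehicle, between 0.763 and 0.928 CPM per kb on average.

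Because the members of the complex work at fixed proportions, the ratios between their transcripts were compared library by library, on log2 CPM with a prior count of 2. The log2 ratio of Birc5 to Incenp was -2.16 to -1.95 in AZD1152 libraries and -1.84 to -1.17 in vehicle libraries, without overlap, a difference of -0.45 ± 0.22 (SE) that was -0.24 without vehicle replicate 1. Its exact two-sided permutation p of 0.0571 is the smallest that 4 against 3 libraries can give, and the Benjamini-Hochberg value over the 7 ratios was 0.3. The log2 ratio of Aurkb to Incenp averaged -2.24 ± 0.428 in AZD1152 libraries (SD, n = 4) and -1.62 ± 0.332 in vehicle libraries (SD, n = 3), with overlap, a difference of -0.62 ± 0.29 (exact permutation p = 0.171, adjusted 0.3). Aurkb relative to Aurka differed by -0.70 ± 0.41 (exact permutation p = 0.171, adjusted 0.3) and relative to Birc5 by -0.17 ± 0.33 (exact permutation p = 0.686). That last difference turned to 0.10 without vehicle replicate 2 and was -0.34 without vehicle replicate 1. The ratios of Aurkb, Birc5 and Incenp to Cdca8 also overlapped between the groups, and that of Aurkb differed by -0.73 ± 0.35 (exact permutation p = 0.229). A different change of the 2 Aurora kinases, or of the kinase and its scaffold, was not shown at this number of libraries.

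The 10 genes were also set against Mki67 (Ki-67), a marker of all cycling cells. Mki67 had 9.56, 5.18, 6.19 and 9.14 CPM in AZD1152 replicates 1 to 4, against 18.5, 19.1 and 20.2 CPM in vehicle replicates 1 to 3, and fell by 1.36 ± 0.20 in log2 units (SE; edgeR adjusted p = 0.0113). Relative to Mki67, Aurkb differed by 0.041 ± 0.345 on the log2 scale and Sgo1 by 0.04 ± 0.253, both within their spread (exact permutation p = 0.914 and 0.971), and with a prior count of 0.5 the differences were -0.027 and -0.28. Leaving out 1 library moved them across 0, from -0.20 without AZD1152 replicate 2 to 0.26 without AZD1152 replicate 1 for Aurkb, and from -0.12 without AZD1152 replicate 3 to 0.19 without AZD1152 replicate 1 for Sgo1. The ratios of Cdca8, Aurka and Incenp to Mki67 were higher in every AZD1152 library than in any vehicle library, by 0.77 ± 0.15, 0.74 ± 0.17 and 0.66 ± 0.21. For each of these 3 the exact two-sided permutation p was 0.0571, the smallest possible, and 0.19 after adjustment over the 10 ratios. Tpx2, Plk1, Bub1 and Birc5 had differences of 0.67, 0.63, 0.51 and 0.21 with overlapping groups (exact permutation p = 0.114 to 0.457). The difference of Plk1 was 0.29 without vehicle replicate 1. That of Birc5 was 0.38, 0.077 and 0.081 without AZD1152 replicate 1, 2 and 3, and 0.33 and 0.12 without vehicle replicate 1 and 2. Sgo2a, at the floor, differed by 0.74 ± 0.39. A prior count of 2 makes the fall of a gene with few counts look smaller, which raises its ratio to Mki67. In the edgeR fit the log2 fold changes were -1.77 for Sgo1, -1.44 for Aurkb, -1.03 for Bub1 and -1.26 for Birc5, beside -1.36 for Mki67. The small difference of Sgo1 from Mki67 at a prior count of 2 thus depends on that prior. For Sgo2a the value was -0.95 with no filter on low counts.

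**Figure D4:**
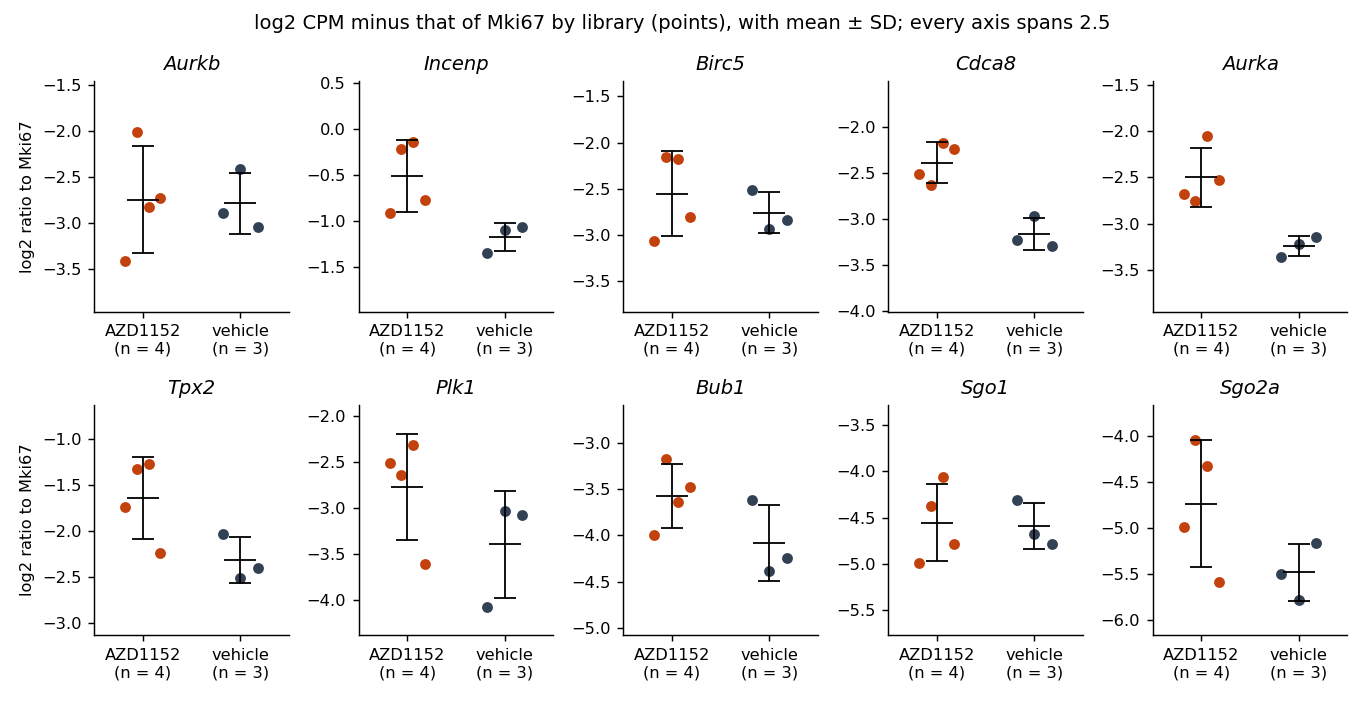
log2 CPM of each gene minus that of Mki67 (vertical axis; every panel spans the same width) in the 4 AZD1152 and 3 vehicle libraries, with mean and SD. The AZD1152 points lie above all vehicle points for Incenp, Cdca8 and Aurka, while those of Aurkb and Sgo1 overlap with vehicle.

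Promoters are shown for the members with a RefSeq entry (GRCm38.p6) because cell-cycle genes are often read out through a few short elements close to the start site. The table held 8 promoters of 7 members, and Aurkb, Incenp and Tpx2 had no entry. The 100 bases before the annotated start are printed 5′ to 3′ on the strand of the gene, with CCAAT, the box bound by NF-Y, or its complement ATTGG in capitals.
Aurka, chr2:172370571-172370670, minus strand: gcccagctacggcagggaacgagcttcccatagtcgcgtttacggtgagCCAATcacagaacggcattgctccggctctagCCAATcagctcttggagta
Plk1, chr7:122159335-122159434, plus strand: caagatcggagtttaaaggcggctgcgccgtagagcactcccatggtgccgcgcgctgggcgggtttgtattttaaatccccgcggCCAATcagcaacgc
Bub1, chr2:127831860-127831959, minus strand: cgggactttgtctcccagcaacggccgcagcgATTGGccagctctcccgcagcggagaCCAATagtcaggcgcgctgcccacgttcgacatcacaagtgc
Birc5, chr11:117849137-117849236, plus strand: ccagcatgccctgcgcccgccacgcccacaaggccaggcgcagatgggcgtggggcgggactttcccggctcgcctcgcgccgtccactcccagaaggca
Sgo1, chr17:53689316-53689415, minus strand: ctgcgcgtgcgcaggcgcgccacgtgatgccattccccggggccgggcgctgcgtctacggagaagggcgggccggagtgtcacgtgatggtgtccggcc
In the 200 bases before the start, searched on both strands, CCAAT was found 2 times for Aurka, 1 time for Plk1 and 2 times for Bub1, and 3 times for Cdca8, whose window is not printed. With 1 match in the upstream of 2 promoters of Sgo2a, 5 of the 8 promoters held CCAAT, against 29.3% of 32851 promoters in the table. For Aurka and this promoter of Sgo2a, no GENCODE transcript of the gene held bases 31 to 50 after the start. These 2 starts are therefore less certain. Of the 100 bases before the start, 59 for Cdca8, 18 for Sgo1 and 6 for Bub1 lie in annotated exons of the gene itself. For the other promoter of Sgo2a 3 bases do. For Plk1, 67 bases lie in exons of Gm15489 on the opposite strand. The Cdca8 window lies inside the annotated gene, downstream of its outermost start, so its 3 matches are less certain as promoter elements. Birc5 and Sgo1, of the members that fell, had no CCAAT in this window. The element TTTGAA, the core of the cell-cycle homology region, was in 12.5% of all promoters, and an E2F-like site, read as TTGGCGC or as TTCCCGC or as TTGCCGC or as TTCGCGC, in 6.79%. Neither was in the windows of the 7 members, which says only that these letters are not there.

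Of 11 tested genes for the recruitment and control of Aurora B 4 fell, with a median log2 fold change of -1.12: Ccnb1, the cyclin B of the mitotic kinase, by 2.05 ± 0.32, Cdca2, which brings protein phosphatase 1 to chromatin, by 1.51 ± 0.34, Knl1, the kinetochore scaffold that binds BUB1, by 1.24 ± 0.31, and Bub1b, a spindle checkpoint protein, by 1.12 ± 0.29 in log2 units (edgeR adjusted p = 0.0125, 0.033, 0.0432 and 0.0485). Haspin, the kinase whose histone mark survivin reads, had 3.47 ± 0.79 CPM in AZD1152 kidneys (SD, n = 4) and 3.20 ± 0.417 CPM in vehicle kidneys (SD, n = 3), and its log2 fold change of 0.12 ± 0.23 did not pass (edgeR adjusted p = 0.798). Among 8 substrates of Aurora B the median was -0.73. In edgeR 0 of them passed, with 6 at a p under 0.05 before adjustment, 5 of these lower, and DESeq2 called 1. Without AZD1152 replicate 1, or with total counts, edgeR called 2 of them. With upper-quartile factors, no filter or the stricter filter it called 1. Kif2c had the smallest p of the 8, just over the threshold, with -1.03 ± 0.27 (edgeR adjusted p = 0.05004), and was named after its values were seen. Kif23, a kinesin of the central spindle, had -0.67 ± 0.38 (edgeR adjusted p = 0.321).

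Around Aurora A, 3 of 12 genes fell, and the median was -0.16. Hmmr, a spindle protein that helps TPX2 to the poles, fell by 1.81 ± 0.47, Tacc3, a substrate that builds microtubule bridges, by 0.92 ± 0.20, and Cep192, the centrosome scaffold that recruits the kinase, by 0.47 ± 0.09 in log2 units (edgeR adjusted p = 0.0485, 0.0274 and 0.0224). Nedd9, a focal adhesion scaffold that binds Aurora A, averaged 82.9 ± 9.95 CPM with AZD1152 and 81.6 ± 3.48 CPM with vehicle. For polo-like kinases and their substrates the median was -0.61. In edgeR 0 of 7 passed, with 2 at a p under 0.05 before adjustment, and DESeq2 called 0. Fbxo5, an inhibitor of the anaphase-promoting complex, had 0.06 ± 0.24.

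The partners of the shugoshins are cohesin and the phosphatase PP2A-B56, which resting cells also make. The 15 cohesion genes had a median log2 fold change of -0.05. In edgeR 0 passed, with 2 lower at a p under 0.05 before adjustment, and DESeq2 called 1. The 2 were Cdca5 (-1.33 ± 0.42, edgeR adjusted p = 0.0884) and Espl1 (-1.08 ± 0.31, edgeR adjusted p = 0.0647). Every AZD1152 library lay below every vehicle library for these 2 and for Esco2 (-0.86 ± 0.41). Cdca5, Espl1 and Esco2 were named after their values were seen. Pds5a, a cohesin regulator, averaged 78.6 ± 2.79 CPM with AZD1152 and 77.7 ± 4.43 CPM with vehicle. The 9 PP2A-B56 subunits had a median of 0.09. In edgeR 0 passed, with 3 at a p under 0.05 before adjustment, 1 of them lower, and DESeq2 called 0. The scaffold subunit Ppp2r1a averaged 150.9 ± 2.31 CPM with AZD1152 and 151.5 ± 2.04 CPM with vehicle.

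Of 10 genes that transcribe the mitotic programme 1 fell, Foxm1, a factor that drives G2 genes, by 0.80 ± 0.20 in log2 units (edgeR adjusted p = 0.0417), while the median was -0.03. Lin54, the subunit of the DREAM complex that binds DNA, had 0.0053 ± 0.109. Among 6 proliferation markers 3 fell: Mki67, Top2a (topoisomerase II alpha) by 1.43 ± 0.34 and Ccna2 (cyclin A) by 1.33 ± 0.34 (edgeR adjusted p = 0.0398 and 0.0455 for the last 2). Pcna, the replication clamp, had -0.10 ± 0.10 and averaged 36.9 ± 3.88 CPM with AZD1152 and 39.4 ± 2.27 CPM with vehicle (edgeR adjusted p = 0.602). The Mki67 call held without any 1 of the 7 libraries. Without vehicle replicate 3 the other 10 called genes of these lists (Ccnb1, Cep192, Tacc3, Top2a, Ccna2, Knl1, Bub1b, Cdca2, Hmmr and Foxm1) were all lost, with edgeR adjusted p of 0.0562 for Ccnb1 to 0.165 for Foxm1. Without vehicle replicate 1 all of the 10 but Ccnb1 and Cdca2 were lost (edgeR adjusted p = 0.0586 to 0.112), and without vehicle replicate 2 all but Ccnb1 and Cep192 (0.0552 to 0.111). Without AZD1152 replicate 4 all but Ccnb1 were lost (edgeR adjusted p = 0.0541 to 0.1). Without AZD1152 replicate 1 the calls of Knl1, Cdca2, Hmmr and Foxm1 were lost (0.0531 to 0.0767), without replicate 2 those of Knl1, Bub1b, Cdca2 and Foxm1 (0.0611 to 0.0976), and without replicate 3 those of Top2a, Ccna2, Bub1b, Cdca2, Hmmr and Foxm1 (0.0544 to 0.0966).

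**Figure D5:**
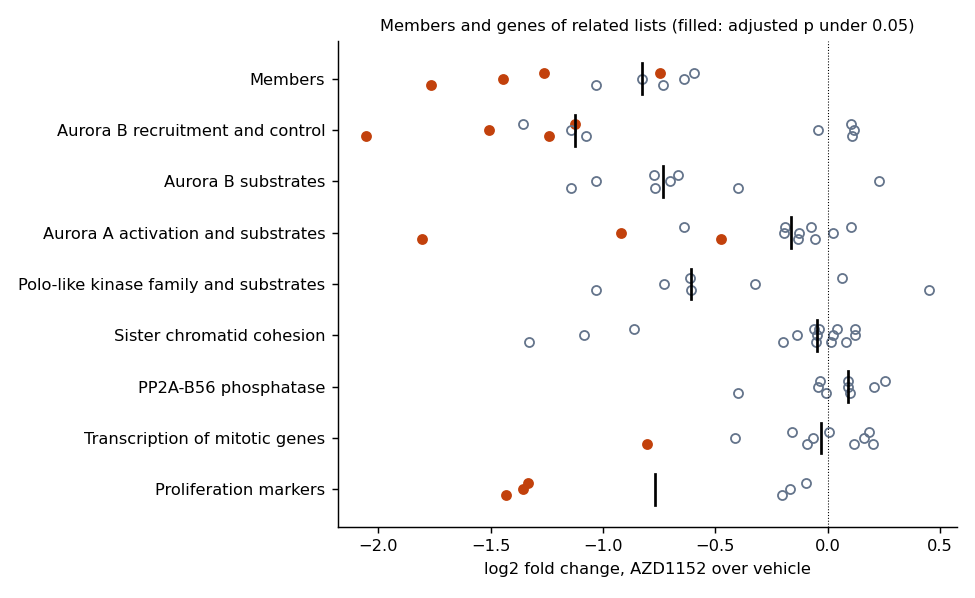
log2 fold change of AZD1152 over vehicle (horizontal axis) for the 9 tested members (top row) and each tested gene of 8 related lists, filled where adjusted p was under 0.05, with the median of each row as a bar. Medians range from -1.12 for Aurora B recruitment and control to 0.09 for PP2A-B56 subunits.

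Summed levels of T cell, macrophage and fibroblast markers were lower in AZD1152 kidneys, and that of proximal tubule markers was higher. The sums of B and plasma cell markers and of neutrophil markers overlapped between the groups. On average most of the B and plasma cell sum came from Jchain, at 177.4 ± 204.1 CPM with AZD1152 and 484.3 ± 336.5 CPM with vehicle (SD). The summed level of 10 T cell markers was 46.5 to 71.4 CPM in AZD1152 libraries and 93.1 to 150.1 CPM in vehicle libraries, and 5 of the 10 fell. The summed level of 10 macrophage markers was 348.6 to 534.6 CPM with AZD1152 and 697.3 to 811.6 CPM with vehicle, and 7 of the 10 fell. AZD1152 replicate 2 was the lowest library in both sums. It was also the lowest for Mki67, Incenp, Cdca8, Aurka and Sgo1, and not for Aurkb, Birc5, Tpx2, Plk1, Bub1 or Sgo2a. In edgeR 0 of 7 tested B and plasma cell markers, 0 of 4 neutrophil markers and 0 of 3 erythroid markers passed, with 2, 1 and 0 at a p under 0.05 before adjustment, and DESeq2 called 1, 1 and 0. Of the erythroid markers, Gata1 had no count in any library. The summed level of all 6 listed was 8.83 to 34.9 CPM with AZD1152 and 13.0 to 17.1 CPM with vehicle. Of 6 proximal tubule markers 3 rose, and their summed level was 9968 to 11859 CPM with AZD1152 and 6627 to 8569 CPM with vehicle. These counts were smaller without vehicle replicate 3, at 0 T cell, 2 macrophage and 0 proximal tubule genes, and without vehicle replicate 1, at 3, 2 and 0. Those of T cell and proximal tubule genes were 2 and 0 without AZD1152 replicate 4 and 2 and 2 without vehicle replicate 2, and 1 proximal tubule gene was called without AZD1152 replicate 2 or 3. Without AZD1152 replicate 3, 2 neutrophil markers were called. The summed level of 6 fibroblast and mesangium markers was 118.3 to 191.1 CPM with AZD1152 and 199.3 to 306.0 CPM with vehicle, without overlap. All 6 had negative log2 fold changes and 1 fell, Col1a1, a chain of type I collagen, by 1.31 ± 0.24 in log2 units (edgeR adjusted p = 0.0197), a call lost without AZD1152 replicate 4 or vehicle replicate 3. Of 8 markers of other kidney segments and podocytes 1 rose, Atp6v1b1, a proton pump subunit of intercalated cells, by 0.42 ± 0.07 (edgeR adjusted p = 0.0175), a call lost without vehicle replicate 1 or 3. In edgeR 0 of 6 endothelial markers passed, with 0 at a p under 0.05 before adjustment, and DESeq2 called 0. Jchain, Gata1, Col1a1 and Atp6v1b1 were named after their values were seen. The part of these cell types in the results of the Aurora genes was not tested.

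By the root mean square difference of gene-centred log2 CPM over the 7 libraries, genes with a pattern near that of Aurkb were sought among 14549 genes that averaged 1 CPM or more. Phf11b and Gm5431, at a difference of 0.224 each, Ifi205 at 0.231 and Gbp9, a guanylate-binding protein, at 0.238 were among the 5 nearest. Among the members themselves Birc5 was nearest to Aurkb with 0.364 and Plk1 farthest with 0.705. The 5 nearest were picked for closeness from 14549 genes and the members were not, so their distances are not comparable. Sampling of reads at small counts also adds to the distances of the members.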

How the data were processed

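Per the labels' protocols, libraries were made with oligo(dT) bead selection and copied with random primers (TruSeq RNA kit). The submitters' processing notes name CASAVA, HISAT2 2.0.5, DESeq2, DESeq and GRCm38. The authors deposited raw read counts per gene without normalization. The counter, strand setting, dose, schedule, age and batch are not given in the sources used here. Groups came from the sample titles. The series text gives separate mice, and no 2 libraries agreed within sampling noise (over 21 pairs, chi-square was at least 10.8 times its degrees of freedom). Symbols, coordinates and merged exon lengths came from GENCODE M21 (GRCm38), which named 53360 of 53465 genes.

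After filterByExpr and TMM scaling, edgeR 4.0.16 (R 4.3.3) fitted the quasi-likelihood model to the counts on group alone, with Benjamini-Hochberg adjustment over 15774 genes, two-sided. SE is the size of the log2 fold change over the square root of F, and intervals use the t distribution of the fit. CPM are on TMM-scaled totals, and 3 counts, the floor, equal 0.167 to 0.213 CPM. Sampling variation and floors cover counting error only. Ratios used exact permutation tests. Lists are described by counts and medians, with no set test. The fit was tested on simulated data with a single dispersion and 200 changed genes drawn from those with higher counts. That test does not cover genes with counts as small as those of Sgo1, Bub1 and Sgo2a. Members and lists were chosen with earlier results of these data known.

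Named genes were all members, Mki67, up to 4 called genes and the gene with the largest p in each related list, and the 5 nearest to Aurkb, of which 1 is not reported here. Alternatives were 3 scalings, 2 filters, DESeq2 1.42.0, a replicate block, each library left out, and a prior count of 0.5. A planned comparison of protein sequences was not run.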

Additional observations from a re-analysis of the deposited data

Results flagged for a closer look

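2 of 45 sets of 4 AZD1152 values had a library far from the other 3 (the gap to the nearest one over the range passed Dixon's 95% value), and chance gives about 1 in 20. Aurka in AZD1152 replicate 2 was at 0.664 CPM, where the other 3 libraries had 1.39 to 1.49 CPM. Sgo2a in AZD1152 replicate 4 was at 0.0709 CPM, which is 1 count, where the others had 0.181 to 0.199 CPM from 3 counts each.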

How the results depend on the processing

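The 9 tested members had negative log2 fold changes in every alternative that gave a value, and with RLE or upper-quartile factors the number called stayed at 4. It was 3 with no filter, with the stricter filter (which removed Sgo1 and Bub1) and in DESeq2 (where Sgo1 had no adjusted p), and 5 with total counts. With no filter Sgo1 had -1.77 (edgeR adjusted p = 0.0612), and with total counts Tpx2 had -0.88 (0.0437). Leaving out 1 library gave 0 to 4 called members, 223 to 1094 genes called in all (1235 in the full set) and 1 to 9 called genes of the related lists (11 in the full set). Without vehicle replicate 3, edgeR called 0 members, with 6 at an unadjusted p under 0.05. Over these fits Aurkb ranged from -1.58 to -1.23, Incenp from -0.85 to -0.66, Birc5 from -1.35 to -1.16 and Sgo1 from -1.93 to -1.62.

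DESeq2 called 2133 genes. Total counts gave 13.5% of calls higher, beside 38.5% with TMM. Same-numbered libraries did not pair (correlations of deviations -0.288, 0.209 and -0.119), and not every library correlated best with its own number. A replicate block gave 209 genes, 2 list genes and 0 members in edgeR (6 members at an unadjusted p under 0.05), with Aurkb at -1.57, Incenp at -0.76, Birc5 at -1.29 and Sgo1 at -1.81 (edgeR adjusted p = 0.055, 0.0923, 0.0766 and 0.113). AZD1152 replicate 4 has no vehicle library of its number, so it adds nothing to the fold changes of the block fit, which also leaves fewer residual degrees of freedom. The cause of the smaller counts was not tested.

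With a prior count of 0.5 the ratio of Aurkb to Mki67 turned to -0.027 and that of Sgo1 to Mki67 to -0.28. Leaving out 1 library, these spanned -0.20 to 0.26 and -0.12 to 0.19, Aurkb to Birc5 -0.34 to 0.10 and Cdca8 to Incenp -0.024 to 0.29. The other 13 ratios kept their direction. Depth limits Sgo1, Sgo2a and Bub1 most.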
